A study of Homo sapiens with 6 samples.

Results

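ATF4 is a transcription factor whose protein is made when amino acids run short, when proteins misfold in the endoplasmic reticulum or when other stresses lead to phosphorylation of the translation factor eIF2. Together with partners of the C/EBP family it binds a composite DNA element and raises genes that import and make amino acids, that feed serine, glycine and one-carbon metabolism, and that charge transfer RNAs. The pathway is controlled largely at translation of the ATF4 mRNA, so the level of that mRNA is only one of its steps. The genes described here are 24 genes of the ATF4 network and 9 cytosolic aminoacyl-tRNA synthetases, enzymes that each join 1 or more amino acids to their transfer RNAs. They were chosen by symbol, as every probe annotated to one of the 33 genes, which gave 45 of the 48803 probes and 33 of the 18852 genes on the array.

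The cells were ES-2, an established human line labelled as ovarian clear cell carcinoma, cultured in serum-containing medium. One group of 3 arrays came from cells transfected with a mimic of hsa-mir-22 at 65 nM, and the other group of 3 from cells transfected with a negative control mimic based on worm microRNAs, for which no dose is given in the sources used here. Both groups received transfection reagent and were harvested after 48 hours, and the labels number biological replicates 1 to 3 in each group. Separate cultures are not named, so the tests below speak only of the variation among these arrays. A mimic is a synthetic double-stranded RNA that acts as the microRNA it copies. The series asked how transcript levels respond when mir-22 is raised.

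The reagent is labelled as mir-22 without naming an arm, so both mature arms of the gene are shown, from RefSeq on GRCh38.p14 (MIR22, minus strand). The 3p arm lies at chr17:1713914-1713935 and the 5p arm at chr17:1713952-1713973. Capitals mark the seed, bases 2 to 8, which pairs with target mRNAs.
hsa-miR-22-3p: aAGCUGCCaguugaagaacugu
hsa-miR-22-5p: aGUUCUUCaguggcaagcuuua

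The element bound by ATF4 with C/EBP factors was searched in the members' promoters, since it is the feature that the network's genes are known to share. RefSeq promoters on GRCh38.p14, from 250 bases before to 50 after the start of the gene, were matched for 27 of the 33 members. The letters TGATGNAA were searched on both strands, with no overlap with the other motif searched. They occurred in 7 of these 27 promoters, against 3.67% of all 27305 promoters and 1.88% of the 9129 promoters of genes detected on the arrays. The 7 were 4 of the 8 synthetases with a promoter and 3 of the 19 ATF4 network genes with one. Each site is shown 5′ to 3′ on the strand of its gene with up to 10 flanking bases, with the match in capitals. In 5 of the 7 the match read TGATGCAA, on the gene's own strand or, as TTGCATCA, on the opposite one.
AARS1: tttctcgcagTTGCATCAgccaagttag
ASNS: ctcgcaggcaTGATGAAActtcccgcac
CHAC1: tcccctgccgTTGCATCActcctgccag
IARS1: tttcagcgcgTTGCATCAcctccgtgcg
MARS1: ccggttccggTTGCATCAgcgagggatt
NARS1: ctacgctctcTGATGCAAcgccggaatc
SLC3A2: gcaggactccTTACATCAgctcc

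The windows lie at chr16:70289676-70289703 on the minus strand for AARS1, chr7:97872459-97872486 (minus) for ASNS, chr15:40953252-40953279 (plus) for CHAC1 and chr9:92293693-92293720 (minus) for IARS1. Those of MARS1, NARS1 and SLC3A2 lie at chr12:57488054-57488081 (plus), chr18:57621805-57621832 (minus) and chr11:62881726-62881748 (plus). The match begins 187, 68, 209, 13 and 4 bases before the start of AARS1, ASNS, CHAC1, IARS1 and MARS1, and 14 and 37 bases after that of NARS1 and SLC3A2. The ER stress response element, searched on both strands, had no match in the members' promoters and occurred in 0.0806% of all promoters. A match of letters is a description of the sequence and does not show binding in these cells.

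Array quality and identity bear on all values below. Between 35.8% and 39.4% of probes were detected per array, and arrays of the mimic group correlated at 0.995 to 0.998 across the 18732 kept probes. Control mimic replicate 3 stood apart, at 0.980 and 0.981 with the other controls, which correlated at 0.997 with each other. Of the markers named for clear cell carcinoma, ARID1A was detected on all 6 arrays while NAPSA and PAX8 were detected on none. Keratins KRT7, KRT8 and KRT18 and the mesenchymal genes VIM, CDH2, FN1 and ZEB1 were detected on all arrays, whereas KRT19, EPCAM and CDH1 were detected on none. Of the markers of other cells, CD14 and PECAM1 were detected on all arrays and PTPRC and CD3E on none. Both detected probes were dim, at raw intensities of 58.9 to 64.6 (CD14) and 58.8 to 75.6 (PECAM1). The median raw intensity of an array was 45 to 48.6, and the other CD14 probe was detected on no array. Fewer cells expressing a gene and less RNA per cell cannot be told apart in such bulk samples.

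With the mir-22 mimic, 1 gene of the ATF4 network was called higher and 1 tRNA synthetase was called lower. The receptor gene VLDLR rose 1.67-fold and the tyrosyl-tRNA synthetase gene YARS1 fell 1.42-fold. None of the other 29 detected members passed the threshold, an adjusted p under 0.05 in limma over all kept probes, with a gene represented by its brightest kept probe. Among all 11133 detected genes 3.47% were called higher and 4.14% lower, so 1 of 31 in each direction lies near the background. The median log2 fold change, mimic minus control, was 0.12 over the 22 detected ATF4 network genes and 0.02 over the 9 synthetases, beside -0.02 over all genes. Both were smaller than the SD, over the 3 control arrays, of the median difference from the control mean (0.15 and 0.051). For the network that median difference was -0.08 on control mimic replicates 1 and 2, 0.18 on replicate 3 and 0.13 to 0.17 on the mimic arrays. The network's SD thus came mostly from control mimic replicate 3. It also describes single arrays, whereas the fold changes compare means of 3 arrays. The comparison therefore cannot decide whether the medians exceed the variation among arrays. The fold change lay above 0 for 22 of the 31, or 71.0%, against 47.0% of all genes. Groups of arrays did not overlap for 5 members that were higher and 3 that were lower, shares of 16.1% and 9.68% beside 14.8% and 19.5% of all genes. An unadjusted p under 0.05 was reached by 3 members that were higher and 1 that was lower, 9.68% and 3.23%, where 11.4% and 14.2% of all genes reached it.

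**Figure D1:**
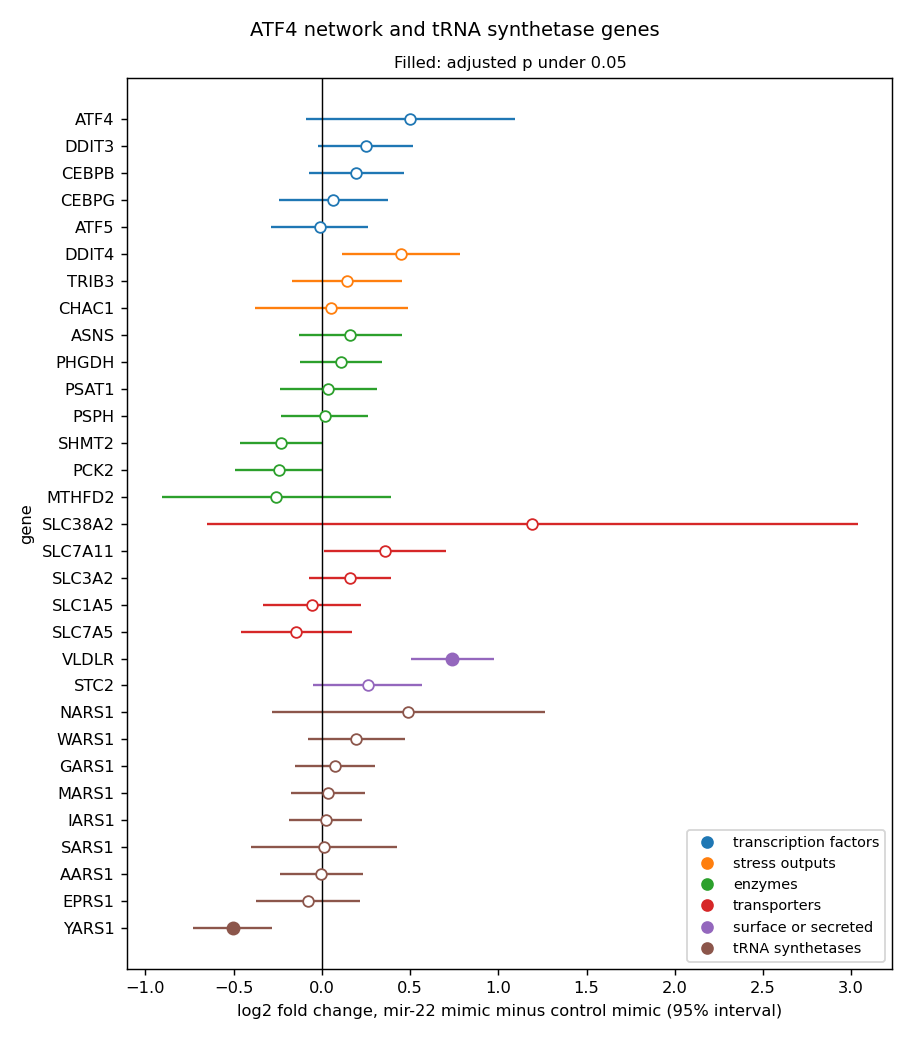
Log2 fold change (mir-22 mimic minus control mimic, horizontal axis) of the 31 detected genes, grouped by role and ordered within it, with bars for the 95% interval of limma's moderated fit, 3 arrays per group. Filled points, VLDLR at 0.74 and YARS1 at -0.51, passed the threshold, and the interval of SLC38A2 is the widest drawn.

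VLDLR encodes a lipoprotein receptor that other work places under ATF4 in stressed cells. The log2 intensity of VLDLR was 8.33, 8.54 and 8.42 on mimic replicates 1, 2 and 3 and 7.63, 7.66 and 7.78 on control mimic replicates 1, 2 and 3. Every mimic array lay above every control array, and control mimic replicate 3 sat close to the other controls. The log2 fold change was 0.74 ± 0.10 (moderated SE, 3 arrays per group), with a 95% interval of 0.50 to 0.97 and an adjusted p of 0.00811 in limma. The gene's other probe was detected on no array. Leaving out 1 array left the log2 fold change between 0.68 and 0.79, and the call was lost without mimic replicate 2 or 3.

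YARS1 attaches tyrosine to its transfer RNA. On the log2 scale its intensity was 10.92, 10.85 and 10.90 on mimic replicates 1, 2 and 3 and 11.29, 11.48 and 11.43 on control mimic replicates 1, 2 and 3. The mimic arrays lay close together (SD 0.03, n = 3) and below all controls. The log2 fold change was -0.51 ± 0.10 (moderated SE, 3 arrays per group), with a 95% interval of -0.73 to -0.28 and an adjusted p of 0.0236 in limma. It ranged from -0.56 to -0.47 with each array left out, and the call did not hold when control mimic replicate 2 or any single mimic array was dropped.

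Among the transcription factors, ATF4 itself did not pass the test. Its brightest probe read 12.34, 12.38 and 12.32 on mimic replicates 1, 2 and 3 and 12.13, 12.26 and 11.16 on control mimic replicates 1, 2 and 3 (log2 intensity). The groups did not overlap, but most of the gap lay in control mimic replicate 3. The log2 fold change was 0.50 with a 95% interval of -0.09 to 1.09 (adjusted p = 0.291, limma), and 0.16 without that array (adjusted p = 0.271, over a range of 0.168 to 0.571 in 16 alternatives). The other probes of ATF4 had log2 fold changes of 0.13 and 0.53. Set against the mean of the other controls, the brightest probe differed by -1.03 on control mimic replicate 3, one of the others by -1.45, and the dimmest by 0.58.

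DDIT3 encodes CHOP, a factor made downstream of ATF4 that promotes cell death under lasting stress. DDIT3 had log2 intensities of 7.91, 7.96 and 8.10 on mimic replicates 1, 2 and 3 and 7.67, 7.62 and 7.94 on control mimic replicates 1, 2 and 3. Control mimic replicate 3 reached into the range of the mimic arrays. The log2 fold change was 0.25 ± 0.12 (adjusted p = 0.251, limma). CEBPB (0.19) and CEBPG (0.07), the C/EBP partners of ATF4, and ATF5 (-0.01), a related factor, did not pass either. NUPR1, a stress-induced chromatin protein, was not above the detection filter: each of its 2 probes was detected on 1 mimic and 1 control array.

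The stress outputs DDIT4, TRIB3 and CHAC1 were also not called. DDIT4 encodes REDD1, an inhibitor of the growth kinase mTORC1. DDIT4 had log2 intensities of 8.11, 8.27 and 8.24 on mimic replicates 1, 2 and 3 and 7.61, 7.59 and 8.07 on control mimic replicates 1, 2 and 3. The groups did not overlap, with control mimic replicate 3 just under the lowest mimic array. Its log2 fold change of 0.45 ± 0.15 had an unadjusted p of 0.0143 and an adjusted p of 0.109 (limma).

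TRIB3, a pseudokinase that feeds back on ATF4 and CHOP, read 9.47, 9.38 and 9.50 on mimic replicates 1, 2 and 3 and 9.15, 9.17 and 9.60 on control mimic replicates 1, 2 and 3. Here the highest of all 6 arrays was control mimic replicate 3, and the log2 fold change was 0.14 ± 0.14 (adjusted p = 0.578, limma). With single arrays left out it ran from 0.06 (without control mimic replicate 1) to 0.28 (without replicate 3). CHAC1, an enzyme that breaks down glutathione, was detected on 2 of 3 mimic and 1 of 3 control arrays. Its log2 intensity was 5.09, 4.92 and 4.44 on mimic replicates 1, 2 and 3 and 4.66, 5.04 and 4.59 on control mimic replicates 1, 2 and 3. The groups overlapped throughout, with a log2 fold change of 0.05 and a 95% interval of -0.38 to 0.49.

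**Figure D2:**
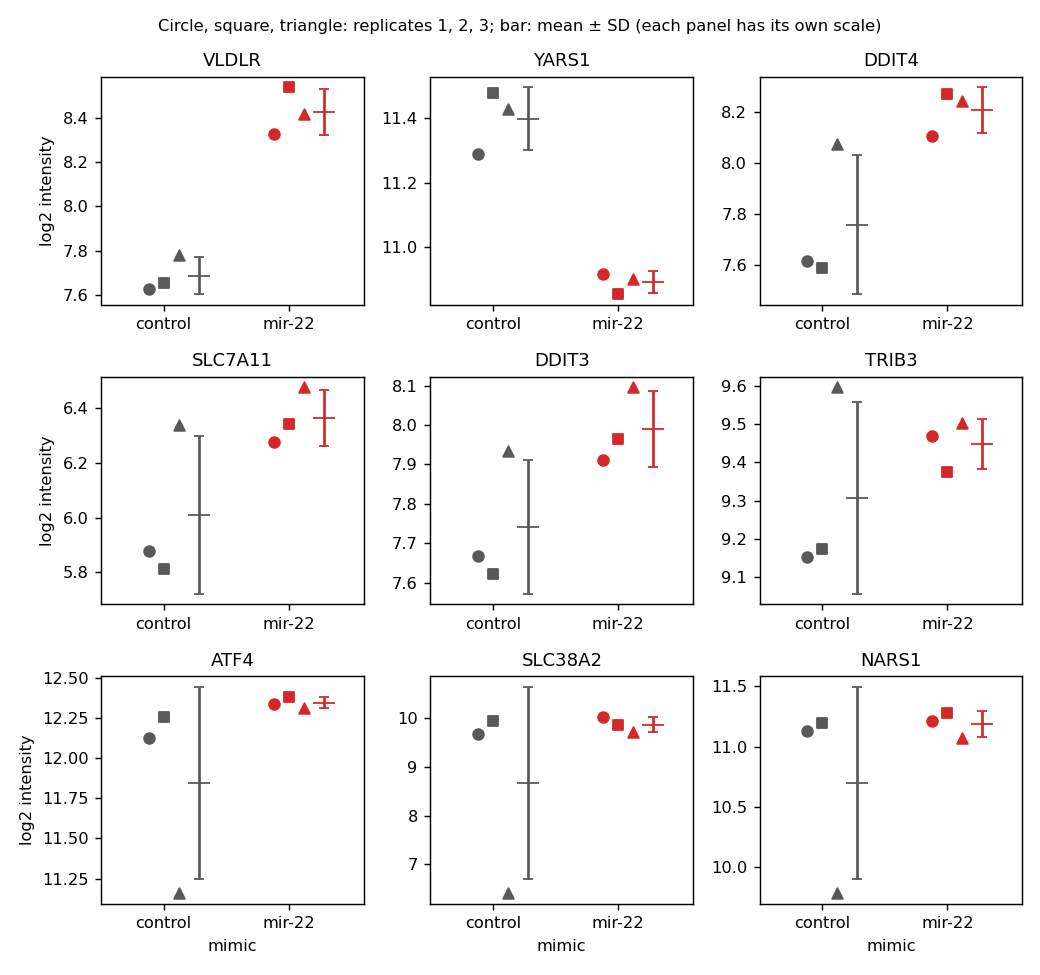
Log2 intensity of 9 genes on each array (circles, squares and triangles for replicates 1, 2 and 3; bars for the group mean ± SD, n = 3; each panel with its own scale). The control triangle lies among or near the mimic points for DDIT4, SLC7A11, DDIT3 and TRIB3, and far below every other array for ATF4, SLC38A2 and NARS1.

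Of the 8 enzymes of amino acid and one-carbon metabolism 7 were detected, and none passed the test. ASNS, which makes asparagine and carries the element shown above, read 11.44, 11.50 and 11.51 on mimic replicates 1, 2 and 3 and 11.22, 11.16 and 11.58 on control mimic replicates 1, 2 and 3. Mimic arrays lay above control mimic replicates 1 and 2 and below replicate 3, and the log2 fold change was 0.16 ± 0.13 (adjusted p = 0.487, limma). Its other probe was at 0.31. The serine synthesis enzymes PHGDH (0.11), PSAT1 (0.04) and PSPH (0.02) had small log2 fold changes, with 95% intervals that reached no further than -0.24 and 0.34. ALDH1L2, a mitochondrial folate enzyme, was detected on no array.

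The remaining 3 detected enzymes act in mitochondria. SHMT2, which splits serine into glycine and a one-carbon unit, read 12.01, 12.05 and 12.03 on mimic replicates 1, 2 and 3 and 12.22, 12.16 and 12.40 on control mimic replicates 1, 2 and 3. Every mimic array was below every control array, yet the log2 fold change of -0.23 ± 0.10 did not pass (adjusted p = 0.223, limma). PCK2, which makes phosphoenolpyruvate in mitochondria, read 9.09, 9.05 and 8.97 on mimic replicates 1, 2 and 3 and 9.19, 9.19 and 9.44 on control mimic replicates 1, 2 and 3. Its groups did not overlap either, at -0.24 ± 0.11 (adjusted p = 0.226, limma). Without control mimic replicate 3 SHMT2 was at -0.16 and PCK2 also at -0.16. The other probes of PCK2 were at -0.25 and -0.35 with adjusted p-values of 0.215 and 0.0818, the last detected on 1 of 3 mimic arrays. MTHFD2, the next enzyme in mitochondrial folate metabolism, was at -0.26 with a wide 95% interval of -0.91 to 0.39, and was low on both number 3 arrays (8.85 with the mimic and 9.09 in the control, against 9.60 to 9.96 on the other 4). With the replicate number as a block its standard error was 0.09 in place of 0.28 (adjusted p = 0.128 in limma, over a range of 0.123 to 0.996 in 16 alternatives), and its log2 fold change was 0.003 without mimic replicate 3 and -0.53 without control mimic replicate 3.

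None of the 5 amino acid transporters was called with all arrays. SLC7A11, the cystine importer that supplies glutathione synthesis, read 6.28, 6.34 and 6.48 on mimic replicates 1, 2 and 3 and 5.88, 5.81 and 6.34 on control mimic replicates 1, 2 and 3. Control mimic replicate 3 lay among the mimic arrays, and the log2 fold change of 0.36 ± 0.15 had an unadjusted p of 0.0453 and an adjusted p of 0.204 (limma). SLC3A2, the heavy chain that SLC7A11 and SLC7A5 share, read 10.06, 10.01 and 10.02 on mimic replicates 1, 2 and 3 and 9.75, 9.86 and 9.997 on control mimic replicates 1, 2 and 3. The groups touched without overlapping, at 0.16 ± 0.10 (adjusted p = 0.384, limma), and its other probe was at 0.07. The leucine transporter SLC7A5 (-0.15) and the glutamine transporter SLC1A5 (-0.06) were at -0.01 and 0.06 without control mimic replicate 3.

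SLC38A2, a neutral amino acid transporter induced by amino acid shortage, had the widest spread of the 31 genes. Its log2 intensity was 10.02, 9.87 and 9.71 on mimic replicates 1, 2 and 3 and 9.67, 9.95 and 6.40 on control mimic replicates 1, 2 and 3. A single array, control mimic replicate 3, differed from the mean of the other controls by -3.41, and the remaining 5 arrays overlapped. The log2 fold change was 1.19 with a 95% interval of -0.65 to 3.04 (adjusted p = 0.417, limma), and 0.06 without that array (adjusted p = 0.807, the highest in 16 alternatives, which began at 0.232). The standard error over this probe's beads was 15.8% of its intensity on control mimic replicate 3, against 3.70% to 10.6% on the other arrays. STC2, a secreted glycoprotein, was at 0.26 ± 0.14 (adjusted p = 0.297, limma).

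The 8 synthetases other than YARS1 were not called. WARS1, for tryptophan, read 9.77, 9.97 and 9.77 on mimic replicates 1, 2 and 3 and 9.45, 9.76 and 9.71 on control mimic replicates 1, 2 and 3. Its lowest mimic array was barely above the highest control, and the log2 fold change was 0.20 ± 0.12 (adjusted p = 0.372, limma), with the other probe at 0.12. The log2 fold change was 0.08 for GARS1 (glycine), 0.04 for MARS1 (methionine), 0.02 for IARS1 (isoleucine), 0.01 for SARS1 (serine), -0.003 for AARS1 (alanine) and -0.08 for EPRS1, which charges both glutamate and proline. The 95% interval was -0.24 to 0.23 for AARS1, -0.18 to 0.23 for IARS1 and -0.17 to 0.24 for MARS1. The dim other probe of IARS1 was at 0.23 (adjusted p = 0.208, limma).

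NARS1, for asparagine, resembled ATF4 and SLC38A2 in its spread. Its log2 intensity was 11.21, 11.28 and 11.07 on mimic replicates 1, 2 and 3 and 11.13, 11.20 and 9.78 on control mimic replicates 1, 2 and 3. With control mimic replicate 3 left out, the log2 fold change moved from 0.49 to 0.03 (adjusted p = 0.876, the highest in 16 alternatives, which began at 0.234). ATF4, SLC38A2 and NARS1 were the 3 members more than 1 log2 unit from the other controls on that array. The standard error over beads was 14.4% of the intensity for ATF4 and 16.7% for NARS1 there, the highest of the 6 arrays for both probes. On the same array it was 4.98% for VLDLR and 5.81% for YARS1, the latter also its probe's highest of the 6. The MTHFD2 probe, not among those 3, reached 15% there and 14.8% on mimic replicate 3.

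**Figure D3:**
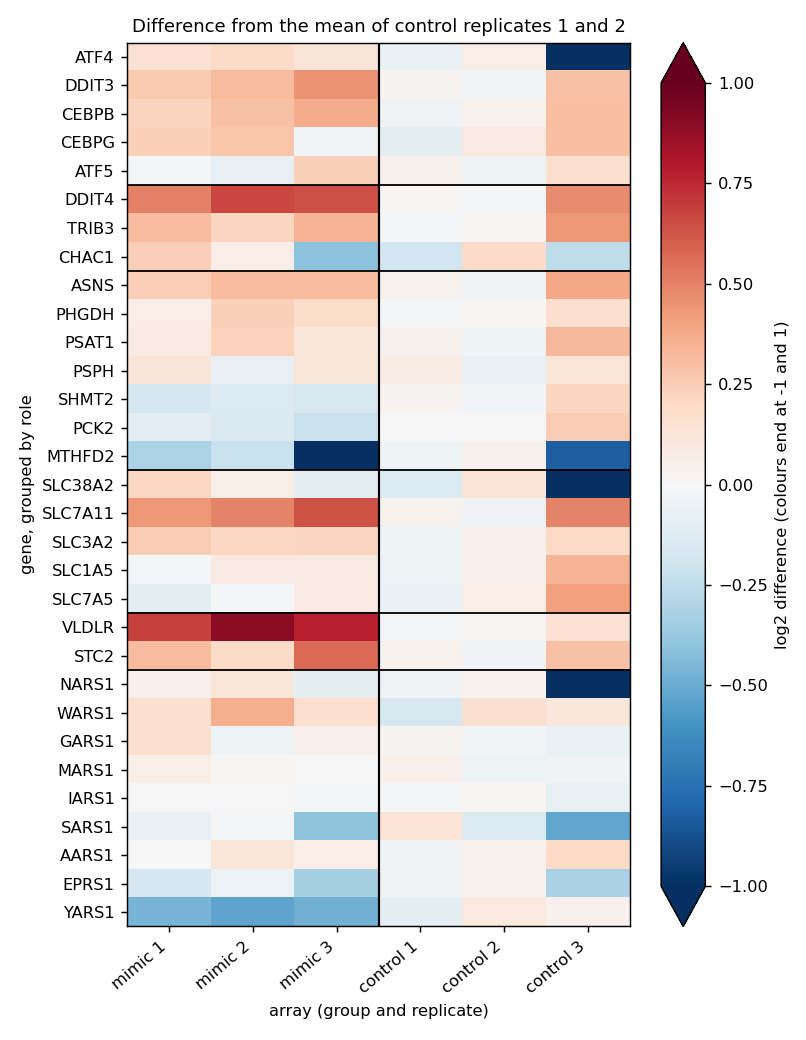
Log2 difference of each gene on each array from the mean of control mimic replicates 1 and 2, with roles separated by horizontal lines; red is higher, blue lower, and colours end at -1 and 1. VLDLR is red on the 3 mimic arrays and YARS1 blue on them, while control mimic replicate 3 is blue for ATF4, SLC38A2 and NARS1 and red for DDIT4, SLC7A11 and TRIB3.

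Control mimic replicate 3 was thus low for a few members and raised for many. For 21 of the 31 members it exceeded the average of the other controls. The median difference was 0.27 over the ATF4 network and -0.06 over the synthetases, beside 0.12 over all genes. Most of all genes thus exceeded that average too, and their share was not counted. On mimic replicates 1, 2 and 3 the ATF4 network's median difference from the same controls was 0.21, 0.20 and 0.15, and that of all genes lay between -0.01 and 0.01.

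Without that array 4 of the 22 ATF4 network genes were called higher and none lower, where 8.61% of all detected genes were called higher and 7.61% lower. The additional genes were DDIT4 (log2 0.60 ± 0.09, adjusted p = 0.00384 in limma), SLC7A11 (0.53, adjusted p = 0.00776) and DDIT3 (0.34, adjusted p = 0.0385), and VLDLR was at 0.78. This fit kept mimic replicate 3, whose deviations from its group mean correlated at 0.434 with those of control mimic replicate 3. With all arrays and the replicate number as a block, DDIT4, SLC7A11 and DDIT3 were not called (adjusted p = 0.0708, 0.0971 and 0.153, limma). Over all 16 alternatives the adjusted p of DDIT4 ran from 0.000822 to 0.315, that of SLC7A11 from 0.0025 to 0.414 and that of DDIT3 from 0.0141 to 0.477. ASNS (0.29, adjusted p = 0.0506), CEBPB (0.30, adjusted p = 0.0576) and TRIB3 (0.28, adjusted p = 0.0613) lay just outside the threshold without the array. Among the synthetases YARS1 alone was called without it, at -0.49. In another fit limma weighted arrays by how closely each followed its group in these same values, with no separate measure of quality. Control mimic replicate 3 had a weight of 0.143 and the others 0.706 to 2.73. With these weights 8 network genes were called higher, where 12.7% of all detected genes were. These 8 were VLDLR, DDIT4, SLC7A11, DDIT3, ASNS, CEBPB, STC2 and TRIB3.

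**Figure D4:**
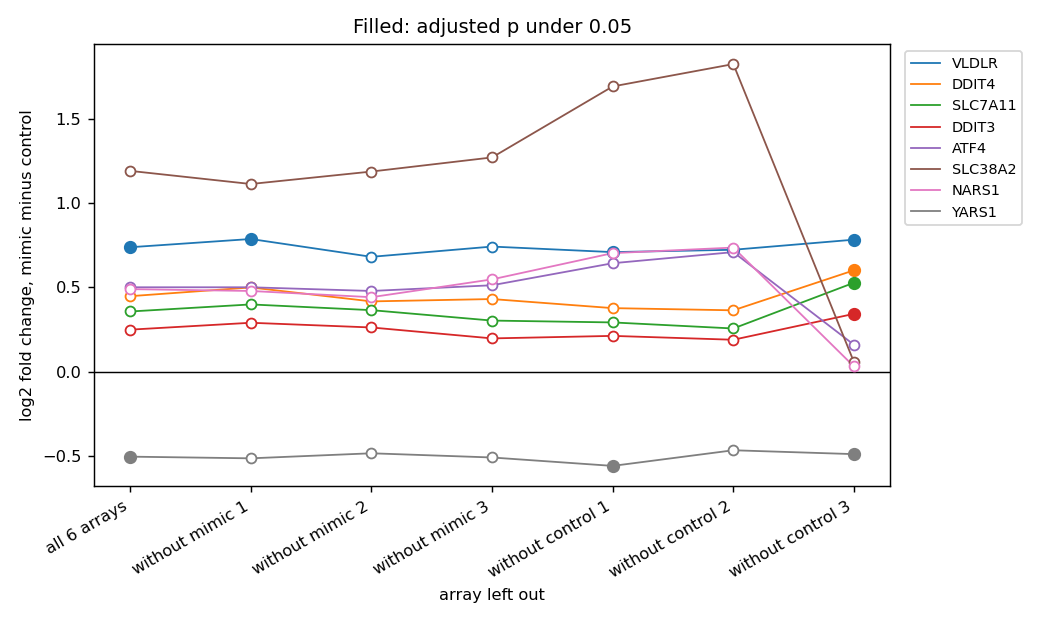
Log2 fold change (mimic minus control) of 8 genes with all 6 arrays and with each array left out, filled where the adjusted p was under 0.05. Without control mimic replicate 3, SLC38A2, NARS1 and ATF4 are at 0.06, 0.03 and 0.16 while DDIT4, SLC7A11 and DDIT3 pass the threshold; VLDLR stays between 0.68 and 0.79.

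Log2 fold changes of the 7 genes bearing the promoter element ran from -0.003 (AARS1) to 0.49 (NARS1) with all arrays. Without control mimic replicate 3 they ran from -0.03 (CHAC1) to 0.29 (ASNS), with NARS1 at 0.03. None of the 7 was called in either case. Of all detected genes, 3.47% and 8.61% were then called higher, and 4.14% and 7.61% lower. With array weights ASNS was called higher, where 12.7% of all detected genes were. No promoter of YARS1 was analysed here, and that of VLDLR held no match.

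Counts of called genes in related lists are given beside all detected genes, of which 3.47% were called higher and 4.14% lower. Without control mimic replicate 3 these shares were 8.61% and 7.61%. Lists this short cannot separate such small counts from those shares. The 10 detected genes of the other cytosolic synthetases, none of them a scaffold protein, had a median log2 fold change of -0.14. None of them was called in either direction. The 16 mitochondrial synthetases had a median of -0.02, also with none called. Without control mimic replicate 3 these medians were -0.07 and -0.06, with 1 mitochondrial synthetase, RARS2 for arginine, called higher and no other gene of either list called. Of 16 detected genes that sense or set eIF2 phosphorylation, which include the eIF2 kinases and the exchange factor eIF2B, none was called and the median was 0.01. Without control mimic replicate 3 the median was 0.05, and 2 of the 16 were called higher, the eIF2 subunit gene EIF2S2 and the mitochondrial protease gene OMA1, and 1 lower, EIF2B5, the catalytic subunit of eIF2B.

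Of 18 detected further ATF4 targets, 1 was called higher and 1 lower, with a median of 0.07. Leaving out control mimic replicate 3 made that 2 higher, with SLC1A4 added, and 2 lower, with KLHL24 added, at a median of 0.06. ERO1A, an oxidase that drives disulphide bond formation in the endoplasmic reticulum, read 9.30, 9.35 and 9.36 on mimic replicates 1, 2 and 3 and 8.36, 8.25 and 8.54 on control mimic replicates 1, 2 and 3. It rose 1.94-fold, a log2 of 0.95 ± 0.11 (adjusted p = 0.00416, limma), and held its call with each of the 6 arrays dropped in turn. NIBAN1, a stress-induced protein that affects translation, was called lower at a log2 fold change of -0.64 ± 0.10 (adjusted p = 0.0132, limma), with its second probe at -0.57 (adjusted p = 0.0265). Dropping any single mimic array ended this call.

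The 9 detected serine and folate enzymes outside the list had a median of -0.27, and of -0.21 without control mimic replicate 3, with none called in either case. Without overlap between groups 4 of them were lower and 1 was higher, where 19.5% and 14.8% of all genes were. In the other related lists the share lower without overlap ran from 10% (ATF, CREB, C/EBP and related factors) to 30% (other cytosolic synthetases). The share higher ran from 0% to 12.5%. Among 10 detected ATF, CREB, C/EBP and related factors, CREBZF, a bZIP protein, was called higher at 0.46 ± 0.10 (adjusted p = 0.034, limma) and none was called lower. CREBZF kept its call in 1 of the 6 cases in which an array was left out, that of control mimic replicate 3, where NFE2L1 was called higher as well.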

How the data were processed

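Total RNA was hybridised to 1-colour Illumina bead arrays, and BeadStudio summarised the beads, per the submitters' processing notes. Per the file headers, the deposited intensity is a probe's mean over beads, deposited with the bead count and a detection score, a fraction from 0 to 1 (detection p was taken as 1 minus it). A deposited value table, in intensity units normalised by the authors to equal quantiles, names the probes. All 48803 rows were joined by their ranks over the 6 arrays without ambiguity. Symbols came from the platform annotation; those of all 33 members were the RefSeq symbols of their Entrez IDs.

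Intensities were processed with neqc (offset 16, quantile normalisation) in limma 3.58.1 under R 4.3.3. The offset compresses low signals, which understates the fold changes of dim genes. Probes with a detection p under 0.01 on at least 3 arrays were kept (18732, for 11133 genes) and tested with limma's moderated test and Benjamini-Hochberg adjustment, threshold 0.05. Standard errors are moderated, and their median was 0.122. The number of arrays limits precision. The pipeline was tested on simulated data. Replicate numbers, shared between groups by the labels, were checked: deviations from group means correlated at 0.334, 0.135 and 0.434 for numbers 1, 2 and 3, though mimic 1 with control 2 (0.315) and mimic 2 with control 1 (0.181) were similar, and a fit with the number as a block was run. Named were all members, with values on every array for those with an unadjusted p under 0.05 or without overlap and for 5 core genes, and called genes of the other lists. Values of SLC38A2 and NARS1 on every array, and list genes called only without control mimic replicate 3, were added after the values were seen. The members and lists were chosen with earlier results of these data known.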

Additional observations from a re-analysis of the deposited data

How the results depend on the processing

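Numbers of called members were small and depended on the arrays used. The count of ATF4 network genes called higher, 1 with all arrays, ran from 0 to 4 with each array left out and was 8 with array weights. The count of synthetases called lower, 1, ran from 0 to 1. No network gene was called lower and no synthetase higher in the 16 alternatives. The medians of the network and the synthetases ran over 0.067 to 0.168 and 0.017 to 0.066. They moved by less than the SD of such medians over the 3 control arrays, 0.15 and 0.051. For the network the control medians were -0.078, -0.079 and 0.181, so that SD came mostly from control mimic replicate 3. The comparison therefore cannot decide whether leaving out that array matters. Over all kept probes, 569 were called higher and 641 lower; with each array left out these ran from 66 to 1432 and from 56 to 1227, and with array weights they were 2188 and 2217. With the replicate number as a block, which pairs the arrays, 772 and 805 probes were called and no member's call changed. VLDLR was called in 14 of 16 alternatives and YARS1 in 12 of 16, and both kept their sign in all. Median scaling, the authors' value table, no background correction, an offset of 50, other detection filters, a trended robust variance and the mean over probes changed no count of called members. Why control mimic replicate 3 stood apart was not tested.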
